A study of Mus musculus with 8 samples.

Results

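The adipokine genes Adipoq, Lep, Retn, Cfd, Rbp4, Agt, Apln and Nampt were followed in whole back skin of mice with and without an intact Flg gene. They were chosen by name, as genes for hormones and other proteins that fat cells release, with earlier results of these data known. They make up 8 of the 49671 genes in the deposited count table. All 8 passed the filter on low counts. The skin came from the shaved back of mice aged 8 weeks, with 4 libraries of Flg genotype wt/wt (wild type, WT) and 4 of Flg genotype ko/ko (knockout, KO). Flg encodes profilaggrin, the precursor of a barrier protein of the epidermis. Strain, sex and the design of the Flg allele are not stated in the labels. The question behind the comparison was which transcripts of whole skin differ when Flg is deficient.

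Mouse back skin holds a layer of white fat cells beneath the dermis, which thickens and thins with the hair cycle. Adipokines are the signals that such cells secrete: adiponectin acts through its own receptors on metabolism and inflammation, leptin reports the size of fat stores to the brain, and adipsin is a protease of the complement system. Some adipokine genes are read mainly in fat cells, such as Adipoq, while others, such as Nampt, are active in most cell types. Adipoq therefore served as the reference within each library. In bulk skin, fewer fat cells and less RNA per fat cell cannot be told apart.

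Library totals lay between 18483242 and 38545957 counts. Flg itself stood at 46.5 to 66.9 CPM (read counts scaled to library size with TMM factors) in WT and at 22.3 to 27.0 CPM in KO, so that its transcript was reduced but not lost in the libraries labelled ko/ko. Fat was present in every library, since the summed level of 20 white adipocyte markers was 5232 to 9299 CPM in WT and 7129 to 9154 CPM in KO. WT replicate 3 held the highest of these sums, against 5774, 5232 and 6377 CPM in WT replicates 1, 2 and 4. KO replicate 3 held the lowest sum of the knockouts. None of the 20 markers was at 0, and 0 of 20 passed edgeR over all genes (12 at an unadjusted p under 0.05, 6 by DESeq2 and 13 by limma voom), with 18 above 0 and a median log2 fold change of 0.60. Over all tested genes 1.41% passed edgeR, 19.5% had an unadjusted p under 0.05 and 46.7% lay above 0. DESeq2 passed 3.16% of genes as higher and 3.13% as lower, and limma voom 6.25% and 7.14%. Several of the 20 markers, such as Fabp4, Cd36, Lpl, Car3 and Cebpa, are also expressed by other cells of skin or muscle. They weigh heavily in the sums, to which Car3 alone gave a mean of 2824 CPM in WT and 3208 CPM in KO. Markers of mammary gland epithelium, which also lies in fat under the skin, summed to 1.35 CPM or less in every library, and Wap was at 0 in all. The brown fat gene Ucp1 averaged 0.0414 CPM in WT and 0.0622 CPM in KO.

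The promoter windows of 4 genes are given because they are the genes on which the comparison below turns: Adipoq as the reference and the 3 whose reads per Adipoq read separated the genotypes. Each window runs from 250 bases before to 50 bases after the transcription start in RefSeq (build GRCm38.p6, the same assembly as mm10), 5′ to 3′ on the strand of the gene. All 8 members had an entry, and Rbp4 had 2. Capitals mark matches, on either strand, to TTGCNNAA (a C/EBP-type motif), CCAAT or TATAAA. The windows are chr6:29059971-29060270 (plus strand) for Lep, chr8:3655520-3655819 (plus) for Retn, chr10:79890603-79890902 (plus) for Cfd and chr16:23146286-23146585 (plus) for Adipoq.
Lep: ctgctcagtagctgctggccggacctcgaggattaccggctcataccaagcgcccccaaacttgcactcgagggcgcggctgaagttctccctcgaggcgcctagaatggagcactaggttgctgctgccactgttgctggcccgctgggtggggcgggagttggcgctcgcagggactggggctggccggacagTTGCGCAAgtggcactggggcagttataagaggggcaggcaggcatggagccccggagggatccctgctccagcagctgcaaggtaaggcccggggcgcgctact
Retn: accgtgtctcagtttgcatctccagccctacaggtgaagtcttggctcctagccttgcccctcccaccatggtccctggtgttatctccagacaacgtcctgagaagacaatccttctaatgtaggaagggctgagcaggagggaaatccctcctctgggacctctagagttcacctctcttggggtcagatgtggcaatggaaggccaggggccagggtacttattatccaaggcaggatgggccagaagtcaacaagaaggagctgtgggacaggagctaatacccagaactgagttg
Cfd: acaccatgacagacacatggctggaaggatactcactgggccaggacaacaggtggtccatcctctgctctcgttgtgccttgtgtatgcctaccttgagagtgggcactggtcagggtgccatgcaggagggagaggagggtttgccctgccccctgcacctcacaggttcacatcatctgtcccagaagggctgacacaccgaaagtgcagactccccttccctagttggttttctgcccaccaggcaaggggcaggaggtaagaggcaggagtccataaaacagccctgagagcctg
Adipoq: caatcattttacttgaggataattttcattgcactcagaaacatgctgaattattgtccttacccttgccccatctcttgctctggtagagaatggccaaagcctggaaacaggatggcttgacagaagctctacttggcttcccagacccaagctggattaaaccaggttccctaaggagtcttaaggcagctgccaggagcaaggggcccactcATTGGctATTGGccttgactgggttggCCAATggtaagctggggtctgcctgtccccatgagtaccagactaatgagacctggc
The Lep window held 1 match to the C/EBP-type motif, which begins 55 bases before the start. The Adipoq window held 3 matches to CCAAT, at 34, 27 and 7 bases before the start, and none of the other motifs. The Retn and Cfd windows matched none of these letters. Of 32851 RefSeq promoter windows of the same length, 10.8% held the C/EBP-type motif, 37.4% CCAAT and 13.6% TATAAA, and each match is only a description of the window.

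Adipoq (ENSMUSG00000022878, mm10 chr16:23146536-23158028, plus strand) encodes adiponectin, a hormone made almost entirely by fat cells. Its level was 120, 81.8, 222 and 93.6 CPM in WT replicates 1 to 4, and 218, 276, 152 and 223 CPM in KO replicates 1 to 4. The groups overlapped, because WT replicate 3 was above KO replicates 1 and 3. The means were 129 ± 63.7 CPM in WT and 217 ± 50.8 CPM in KO (SD, n = 4). The log2 fold change, knockout over wild type, was 0.75 ± 0.31 (SE), and edgeR's quasi-likelihood test did not pass it over all genes (adjusted p = 0.239). Without WT replicate 3 the log2 fold change was 1.15 and the edgeR adjusted p 0.018.

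Lep (ENSMUSG00000059201, chr6:29060220-29073877, plus strand) encodes leptin, the satiety hormone that rises with the fat content of adipocytes. It had the widest difference of the 8 genes. Lep stood at 11.3, 12.02, 36.3 and 8.27 CPM in WT replicates 1 to 4, and at 108, 118, 37.5 and 101 CPM in KO replicates 1 to 4. All knockout values lay above all wild-type values, but the lowest knockout, replicate 3, was only just above the highest wild type, also replicate 3. The means were 17.0 ± 12.98 CPM in WT and 91.2 ± 36.5 CPM in KO (SD, n = 4), a ratio of means of 5.38. On the log2 scale this was 2.43 ± 0.55 (SE) in the edgeR fit, whose adjusted p of 0.0724 missed the threshold of 0.05.

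Retn (ENSMUSG00000012705, chr8:3655770-3660110, plus strand) encodes resistin, a cysteine-rich protein that mouse fat cells secrete and that opposes insulin action. Its level was 17.5, 24.2, 45.4 and 11.8 CPM in WT replicates 1 to 4, and 78.7, 91.3, 56.4 and 74.1 CPM in KO replicates 1 to 4. These groups did not overlap either, and again the third library of each genotype lay closest to the other group. The means were 24.7 ± 14.7 CPM in WT and 75.1 ± 14.5 CPM in KO (SD, n = 4). The fitted log2 difference was 1.61 ± 0.37 (SE; edgeR adjusted p = 0.0709).

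Cfd (ENSMUSG00000061780, chr10:79890853-79892656, plus strand) encodes adipsin, or complement factor D, the protease that starts the alternative complement pathway by cutting factor B. Its level was 362, 266, 552 and 245 CPM in WT replicates 1 to 4, and 861, 939, 586 and 853 CPM in KO replicates 1 to 4. Every knockout library was above every wild-type library. The means were 356 ± 140.0 CPM in WT and 810 ± 154 CPM in KO (SD, n = 4). The fitted log2 difference was 1.18 ± 0.25 (SE; edgeR adjusted p = 0.0537), the smallest p of the 8 genes.

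Rbp4 (ENSMUSG00000024990, chr19:38116620-38125321, minus strand) encodes the plasma carrier of retinol, made by liver and fat. Its level was 28.8, 13.9, 66.4 and 22.7 CPM in WT replicates 1 to 4, and 38.0, 34.2, 29.8 and 31.1 CPM in KO replicates 1 to 4. Wild type spread on both sides of knockout, with WT replicate 3 the highest of all 8 libraries and WT replicate 2 the lowest. The log2 fold change was 0.02 ± 0.41 (SE, edgeR adjusted p = 0.988), and without WT replicate 3 it was 0.62 (edgeR adjusted p = 0.107).

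Agt (ENSMUSG00000031980, chr8:124556534-124569706, minus strand) encodes angiotensinogen, the precursor of the angiotensin peptides. It stood at 7.74, 15.2, 9.77 and 6.45 CPM in WT replicates 1 to 4 and between 7.39 and 11 CPM in KO, with a log2 fold change of -0.15 ± 0.25 (SE, edgeR adjusted p = 0.764). Its highest value was in WT replicate 2, the library with the lowest Adipoq. Apln (ENSMUSG00000037010, chrX:48025146-48034853, minus strand) encodes apelin, the peptide ligand of Aplnr, which blood vessels also make. It stood between 3.20 and 4.83 CPM in WT and between 3.10 and 3.96 CPM in KO, with a log2 fold change of -0.17 ± 0.17 (SE, edgeR adjusted p = 0.617). Nampt (ENSMUSG00000020572, chr12:32820335-32853369, plus strand) encodes the rate-limiting enzyme of NAD salvage, which is also released from cells as visfatin. It stood between 133 and 157 CPM in WT and between 141 and 182 CPM in KO, with a log2 fold change of 0.12 ± 0.10 (SE, edgeR adjusted p = 0.54). In all 3 the genotypes overlapped.

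**Figure D1:**
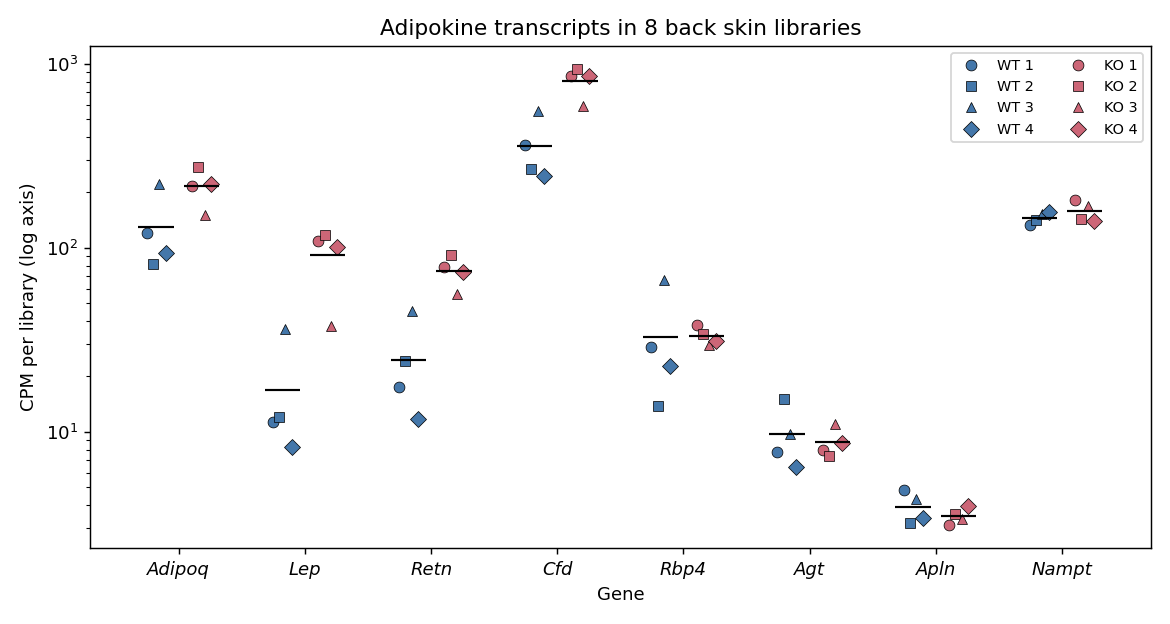
CPM of the 8 adipokine genes in each library on a log axis, with wild type in blue, knockout in red, 1 symbol per replicate number and a black line at the mean of 4 libraries. The genotypes separate for Lep, Retn and Cfd, with WT replicate 3 and KO replicate 3 (triangles) closest to each other, and overlap for the other 5 genes.

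By edgeR's quasi-likelihood test 0 of the 8 genes passed at an adjusted p under 0.05, where 1.41% of 19099 tested genes did (0.712% higher and 0.702% lower in knockout). At an unadjusted p under 0.05 there were 4 of 8 (Adipoq, Lep, Retn and Cfd), against 19.5% of tested genes. The 3 genes whose CPM was higher in every knockout than in every wild-type library compare with 5.57% of tested genes, while 0 of the 8 were lower in every knockout library, against 5.95%. Over the 8 genes the median log2 fold change was 0.43, with 6 above and 2 below 0, and over all tested genes it was -0.02. Because the 8 genes were chosen with earlier results of these data known, these shares describe the set and do not test it. DESeq2 passed Lep, Retn and Cfd (adjusted p = 0.00211, 0.00726 and 0.00012), where it passed 3.16% of genes as higher and 3.13% as lower. With limma voom and a quality weight for each library the same 3 and Adipoq passed (adjusted p = 0.00475, 0.00185, 0.00337 and 0.0164), where 6.25% of genes passed as higher and 7.14% as lower. Those 4 genes also passed edgeR without WT replicate 3, where 3.49% of genes passed as higher and 3.32% as lower, with adjusted p = 0.00913 for Lep, 0.00632 for Retn and 0.00596 for Cfd. They passed as well without WT replicate 3 and KO replicate 3, a setting chosen after seeing the data (2.56% of genes higher and 1.5% lower). With upper-quartile factors 1 of the 8 passed, Cfd (edgeR adjusted p = 0.04996), where 0.775% of genes passed as higher and 0.874% as lower. With the mean of the 20 white adipocyte markers as a covariate none of the 8 passed edgeR, where 0.0838% of genes passed as higher and 0.12% as lower. In that fit the log2 fold change was 0.04 for Adipoq, 1.42 for Lep, 1.06 for Retn, 0.60 for Cfd and -0.75 for Rbp4 (edgeR adjusted p = 0.946, 0.21, 0.295, 0.185 and 0.138). The covariate is not independent of genotype, since 18 of the 20 markers had a log2 fold change above 0 (median 0.60). The fit cannot fully separate marker level from genotype.

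**Figure D2:**
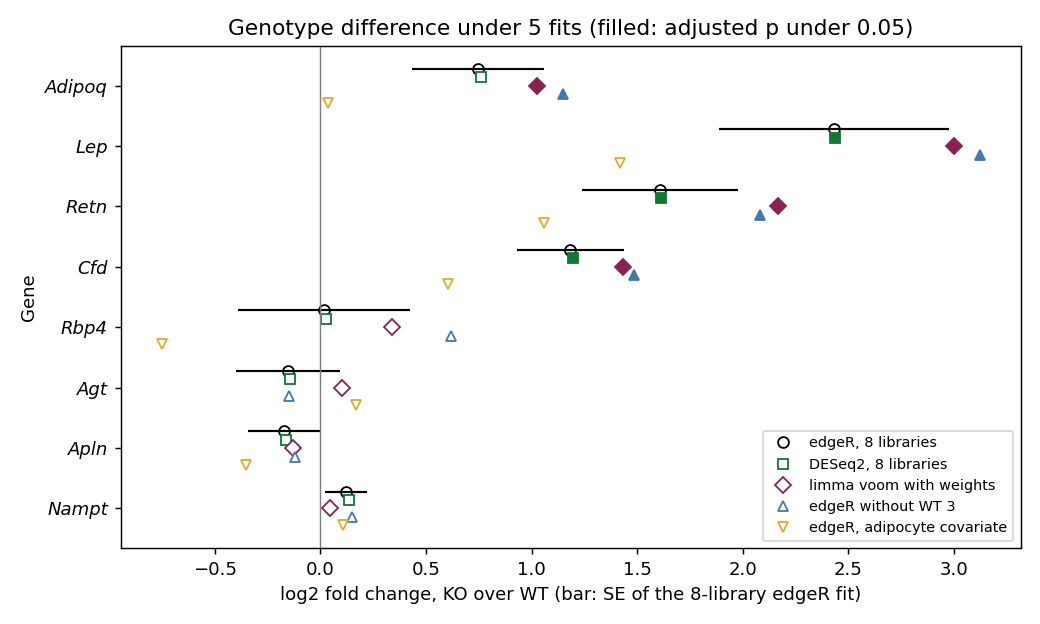
Log2 fold change of each adipokine gene, knockout over wild type, under 5 fits, with the SE of the 8-library edgeR fit as a bar and filled symbols where the adjusted p was under 0.05. Lep, Retn and Cfd lie above 0 in every fit shown, Adipoq goes from 0.75 to 0.04 with the adipocyte covariate, and Rbp4 takes both signs.

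Reads of each gene were next set against Adipoq reads of the same library, a quantity that needs no library scaling. Lep, Retn and Cfd had more reads per Adipoq read in all 4 knockout libraries than in any wild-type library, so that they exceeded the difference that Adipoq itself showed. Rbp4, Agt, Apln and Nampt had lower mean ratios in knockout, with overlapping groups. The 7 ratios share their denominator and are not independent of each other. Genotype was tested on each ratio with an exact permutation test, two-sided. Its 70 possible assignments allow no p below 0.0286, and the p-values are unadjusted.

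Lep gave 9.40, 14.7, 16.4 and 8.84 reads per 100 Adipoq reads in WT replicates 1 to 4, and 49.8, 42.8, 24.7 and 45.3 in KO replicates 1 to 4. The gap between the nearest libraries, WT replicate 3 and KO replicate 3, was wider than in CPM, while the difference between the means was smaller. The mean log2 ratio was 1.72 higher in knockout, a 3.30-fold difference (exact permutation p = 0.0286, n = 4 per group). Retn gave 14.6, 29.5, 20.5 and 12.6 reads per 100 Adipoq reads in WT and 36.1, 33.1, 37.2 and 33.3 in KO. The knockout values fell within a narrow band, with an SD of 0.08 on the log2 scale against 0.55 in wild type. The mean log2 ratio was 0.93 higher, a 1.91-fold difference (exact permutation p = 0.0286, n = 4 per group).

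Cfd gave 302, 326, 249 and 262 reads per 100 Adipoq reads in WT and 396, 341, 386 and 383 in KO. The difference was the smallest of the 3 that separated, at 0.41 on the log2 scale or 1.33-fold (exact permutation p = 0.0286, n = 4 per group), and the gap between the highest wild type and the lowest knockout was narrow. Over all tested genes, 0.157% (30 of 19098, Lep, Retn and Cfd among them) had a ratio to Adipoq that was higher in every knockout library, and 7.06% had one that was lower. The median difference over all tested genes was -0.84, since Adipoq had the higher mean in knockout. The mean of the 20 white adipocyte markers, some of them also expressed by other cells, was then used in place of Adipoq. The 3 ratios again separated the genotypes, with differences of 1.91 for Lep, 1.11 for Retn and 0.59 for Cfd. With the lipid droplet gene Plin1 as the reference they did not: the difference was 1.03 for Lep, 0.24 for Retn and -0.29 for Cfd (exact permutation p = 0.0571, 0.629 and 0.343, n = 4 per group).

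Rbp4 gave 24.0, 17.0, 30.0 and 24.2 reads per 100 Adipoq reads in WT and 17.5, 12.4, 19.6 and 14.0 in KO, so that only WT replicate 2 fell among the knockouts. Its mean log2 ratio differed by -0.58 (exact permutation p = 0.0857, n = 4 per group). Against Plin1 all knockout ratios of Rbp4 were below all wild-type ratios, with a difference of -1.28 (exact permutation p = 0.0286, n = 4 per group). Plin1 itself had a mean log2 ratio to Adipoq 0.70 higher in knockout, which is part of that difference. The mean log2 ratio to Adipoq differed by -0.92 for Agt, -0.98 for Apln and -0.71 for Nampt (exact permutation p = 0.143, 0.0571 and 0.143, n = 4 per group). The CPM of these 3 genes, given above, differed little between genotypes, and their ratios to Adipoq were lowest in KO replicate 2, the library with the highest Adipoq.

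**Figure D3:**
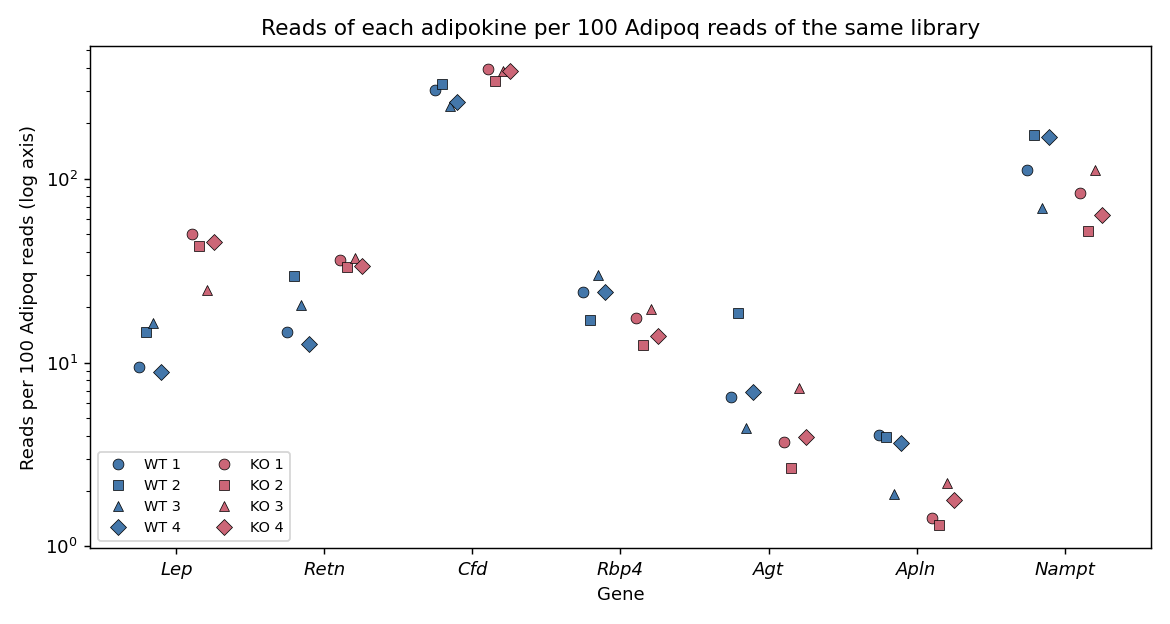
Reads of 7 adipokine genes per 100 Adipoq reads of the same library, on a log axis, with wild type in blue and knockout in red. Lep, Retn and Cfd separate the genotypes (Lep 8.84 to 16.4 in wild type against 24.7 to 49.8 in knockout), and the other 4 genes overlap.

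The same ratio was taken for the 20 white adipocyte markers. Of these, 6 had a higher and 14 a lower mean ratio to Adipoq in knockout, with a median difference of -0.16. The markers named above as also expressed by other cells (Fabp4, Cd36, Lpl, Car3 and Cebpa) were all among the lower. Plin1 was the 1 marker that was higher in every knockout library (0.70), while Fabp4 (-0.85), Cd36 (-0.74) and Aqp7 (-1.21) were lower in every one. Over all tested genes 0.157% were higher and 7.06% lower in this way. None of the 20 exceeded the difference of Lep or Retn, and 3 exceeded that of Cfd. This holds for the listed markers only. Among the 30 of all tested genes that were higher in every knockout library, Lep was number 4 by difference, Retn 22 and Cfd 30. The difference in Cfd is therefore within the range of other adipocyte genes. The genes that tracked Adipoq most closely over the 8 libraries, by the smallest SD of the log2 ratio among 15270 genes of at least 1 mean log2 CPM, were Lipe (SD 0.13), Cdo1 (0.16), Fads3 (0.17), Pnpla2 (0.17), Abhd15 (0.18) and Slc36a2 (0.19). Lipe and Pnpla2 encode the hormone-sensitive and the adipose triglyceride lipase. Cfd came next among the adipokines, with an SD of 0.26 and 20 genes closer to Adipoq than it. The SD was 0.43 for Rbp4, 0.62 for Retn, 0.64 for Nampt, 0.66 for Apln, 0.86 for Agt and 1.01 for Lep. Lep thus departed most from Adipoq of all 7, with 98.0% of the ranked genes closer.

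**Figure D4:**
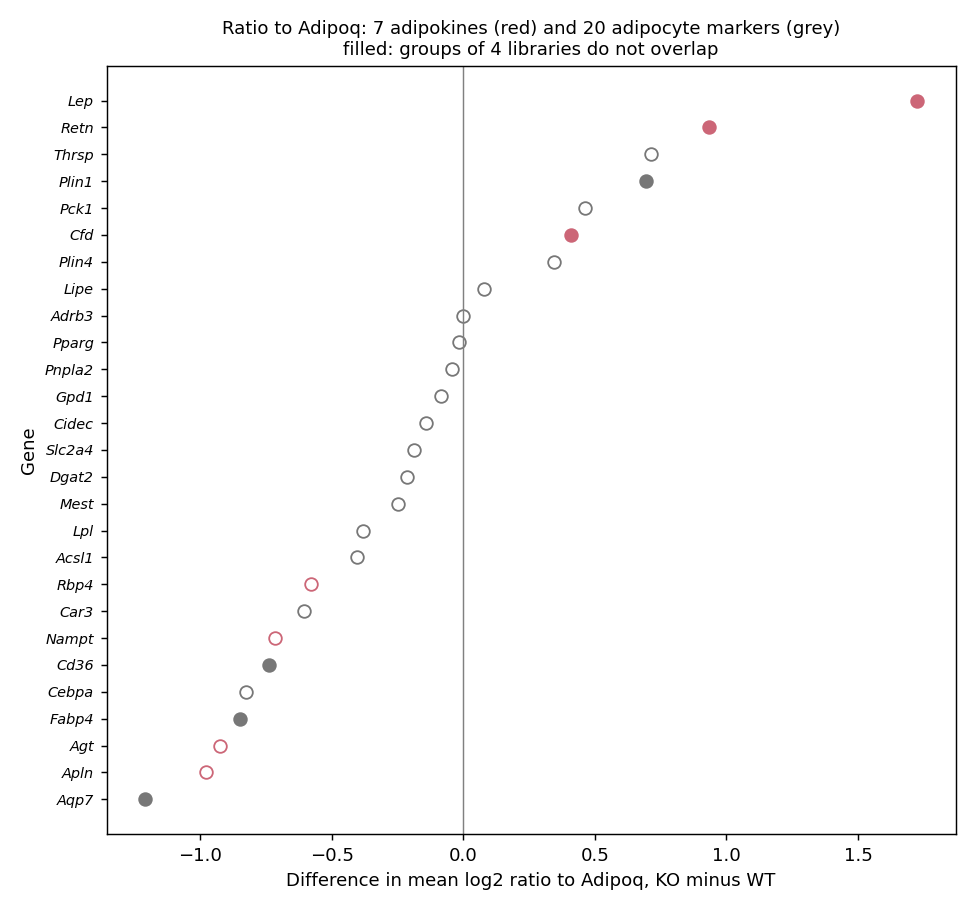
Difference in the mean log2 ratio to Adipoq, knockout minus wild type, for 7 adipokine genes (red) and 20 white adipocyte markers (grey), with filled symbols where the groups of 4 libraries do not overlap. Lep at 1.72 and Retn at 0.93 lie above every marker, and Cfd at 0.41 lies below Thrsp, Plin1 and Pck1.

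Levels of different genes were compared per kilobase of exon. In wild type Cfd was the most abundant at 386 ± 152 CPM per kilobase, followed by Adipoq at 93.6 ± 46.1, Nampt at 32.1 ± 2.44, Rbp4 at 25.4 ± 17.9, Retn at 15.7 ± 9.30, Agt at 5.18 ± 2.03, Lep at 5.06 ± 3.87 and Apln at 1.25 ± 0.242 (SD, n = 4). The ranges of neighbours overlapped from Nampt down to Lep, while Cfd, Adipoq and Apln stood clear of the gene next to them. In knockout the order was Cfd at 877 ± 167, Adipoq at 157 ± 36.8, Retn at 47.6 ± 9.17, Nampt at 34.9 ± 4.51, Lep at 27.2 ± 10.9, Rbp4 at 25.7 ± 2.84, Agt at 4.64 ± 0.834 and Apln at 1.11 ± 0.115 CPM per kilobase (SD, n = 4). Retn, Nampt, Lep and Rbp4 overlapped with their neighbours there, and the other neighbours in the order stood clear of each other. The highest wild-type library exceeded the lowest 4.79-fold for Rbp4, 4.39-fold for Lep and 3.85-fold for Retn. The corresponding spans in knockout were 1.28, 3.15 and 1.62. With replicate 3 of each genotype left out, a setting chosen after seeing the data, the wild-type spans dropped to 2.08, 1.45 and 2.05, and the knockout spans to 1.22, 1.17 and 1.23. The span of Lep was thus wider in wild type than in knockout, both with all libraries and with replicate 3 of each genotype left out. With all libraries kept, the span of Nampt was below 1.30 in both genotypes.

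Among the receptors and partners of these proteins, few genes passed the test. Of 10 receptor genes 8 were tested and 0 passed edgeR over all genes (3 at an unadjusted p under 0.05, 1 by DESeq2 and 2 by limma voom; 5 above and 3 below 0, median 0.16), with 1.41% of all tested genes passing. The smallest p-values were those of the apelin receptor gene Aplnr, at 20.1 ± 8.11 CPM in WT and 10.1 ± 1.34 CPM in KO (SD, n = 4, edgeR adjusted p = 0.107), and of the adiponectin receptor gene Adipor2 at a log2 fold change of 0.27 ± 0.10 (edgeR adjusted p = 0.17). WT replicate 2, at 9.25 CPM, lay among the knockouts for Aplnr. In the list of leptin signalling genes 1 of 9 passed edgeR as higher, against 0.712% of all tested genes. At an unadjusted p under 0.05 there were 2 of 9, near the 19.5% of all tested genes. DESeq2 called 2 (3.16% of all genes as higher and 3.13% as lower) and limma voom 2 (6.25% and 7.14%). The gene that passed edgeR was Stat5a, which encodes a transcription factor downstream of cytokine receptors. Stat5a rose from 35.8 ± 4.37 to 51.1 ± 3.003 CPM (SD, n = 4, edgeR adjusted p = 0.0416). The leptin receptor gene Lepr was at 53.7 ± 11.4 CPM in WT and 66.7 ± 19.1 CPM in KO (SD, n = 4, edgeR adjusted p = 0.422).

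In the alternative complement list, to which adipsin belongs, 1 of 9 passed edgeR as higher, against 0.712% of all tested genes, with 3 at an unadjusted p under 0.05, 2 called by DESeq2 and 2 by limma voom. For this and the next lists, 19.5% of all tested genes had an unadjusted p under 0.05. DESeq2 called 3.16% of genes as higher and 3.13% as lower, and limma voom 6.25% and 7.14%. C3, the central complement protein whose fragment binds factor B, rose from 553 ± 62.4 to 857 ± 125 CPM (SD, n = 4, edgeR adjusted p = 0.0463). Its values were 557, 523, 639 and 494 CPM in WT and 685, 861, 983 and 899 CPM in KO, without overlap. Factor B, Cfb, stood below 1 CPM in both genotype means. Angiotensin enzymes gave 0 of 7 tested (1 at an unadjusted p under 0.05, 0 by DESeq2 and 1 by limma voom), with the smallest p-values at Lnpep (0.54 ± 0.19) and Mme (0.14 ± 0.12, both log2 fold change ± SE). The renin gene Ren1 was too low to be tested. Genes of adiponectin assembly gave 0 of 5 (Ero1l at 0.21 ± 0.09 and P4hb at 0.16 ± 0.10), apelin processing 0 of 3 tested (Furin at -0.07 ± 0.11) and NAD synthesis 0 of 11 (Parp1 at 0.21 ± 0.10 and Qprt at -0.56 ± 0.28). At an unadjusted p under 0.05 these 3 lists held 1, 1 (Aplnr) and 0 genes, DESeq2 called 0, 1 and 0, and limma voom 0, 1 and 0.

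Genes for relatives of adiponectin and resistin were listed as well. Of 9 genes for C1q and TNF related proteins 8 were tested, 1 had a log2 fold change above 0 (C1qtnf1, 0.31 ± 0.11 SE, edgeR adjusted p = 0.164), where 46.7% of all tested genes did, and 7 below 0 (median -0.43). Of the 8, 2 passed edgeR as lower, against 0.702% of all tested genes, with 5 at an unadjusted p under 0.05, 4 called by DESeq2 and 5 by limma voom. Of all tested genes, 19.5% had an unadjusted p under 0.05. DESeq2 called 3.16% of genes as higher and 3.13% as lower, and limma voom 6.25% and 7.14%. C1qtnf2 fell from 15.8 ± 1.78 to 9.92 ± 1.23 CPM and C1qtnf9 from 16.3 ± 2.17 to 10 ± 1.68 CPM (SD, n = 4, edgeR adjusted p = 0.0376 and 0.0465). Of the resistin relatives, Retnla, which is made by macrophages and fat stroma, was at 319, 928, 235 and 477 CPM in WT and 108, 276, 429 and 220 CPM in KO, with overlapping groups (edgeR adjusted p = 0.363). Retnlg, a gene of neutrophils, was at a log2 fold change of -2.03 ± 0.83 (edgeR adjusted p = 0.227). Its level was low, at 1.68, 0.356, 6.40 and 1.23 CPM in WT replicates 1 to 4 and 0.263 to 1.21 CPM in KO. The groups overlapped, and WT replicate 3 was far above the rest. Retnlb was at 0 in all libraries. Of these 2 tested relatives 0 passed edgeR (1 at an unadjusted p under 0.05, 0 by DESeq2 and 0 by limma voom). Of 16 other secreted products of fat 15 were tested and 0 passed (6 at an unadjusted p under 0.05, 0 by DESeq2 and 2 by limma voom; 10 above and 5 below 0, median 0.21). Nrg4 stood at 0.60 ± 0.20 and Angptl4, an inhibitor of lipoprotein lipase, at -1.13 ± 0.37 (log2 fold change ± SE, edgeR adjusted p = 0.146 and 0.156). The 4 calls named from these lists had adjusted p-values just under the threshold. Leaving out 1 library at a time, C3, Stat5a and C1qtnf2 each passed in 2 of 8 fits and C1qtnf9 in 3, with log2 fold changes of 0.56 to 0.73 for C3, 0.43 to 0.56 for Stat5a, -0.71 to -0.58 for C1qtnf2 and -0.82 to -0.60 for C1qtnf9. None of the 4 passed with the white adipocyte covariate, where the log2 fold changes were 0.57, 0.37, -0.79 and -0.92 (edgeR adjusted p = 0.219, 0.262, 0.0982 and 0.0682). That covariate is not independent of genotype, as stated above.

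Markers of other cells that can make some of these proteins were measured as well. Macrophage markers summed to 1925 to 2490 CPM in WT and 1835 to 2696 CPM in KO, with none at 0. Of the 7, edgeR called 1 (Mrc1, higher), against 0.712% of all tested genes called as higher. Endothelial markers summed to 223 to 342 CPM in WT and 251 to 292 CPM in KO, with 0 of 5 called, and fibroblast and preadipocyte markers to 10870 to 13850 and 10160 to 14050 CPM, with 0 of 8 called. Neutrophil markers summed to at most 18.4 CPM in any library, with 0 of 3 tested called. Brown and beige adipocyte markers summed to 119 to 166 CPM in WT and 87.3 to 126 CPM in KO, with 0 of 6 tested called. All 6 had a log2 fold change below 0, where 46.7% of all tested genes lay above 0. Of these sums Ucp1, too low to be tested, gave a mean of only 0.0414 CPM in WT and 0.0622 CPM in KO. Skeletal muscle markers summed to 11280 to 14450 and 12250 to 16460 CPM, keratinocyte markers to 9227 to 9378 and 7571 to 9116 CPM, and sebocyte markers to 268 to 750.0 and 393 to 652 CPM, with none called. Over the lists without a call by edgeR, DESeq2 and limma voom called 0 and 0 endothelial, 2 and 2 fibroblast, 1 and 2 neutrophil, 1 and 2 brown fat, 1 and 1 muscle, 0 and 0 keratinocyte and 0 and 2 sebocyte markers. Of all genes, DESeq2 called 3.16% as higher and 3.13% as lower, and limma voom 6.25% and 7.14%. At an unadjusted p under 0.05 the counts were 0, 3, 1, 2, 2, 0 and 1 in the same order, where 19.5% of all tested genes had one. Their part in the adipokine values was not tested.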

How the data were processed

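RNA from whole back skin was sequenced on an Illumina NextSeq, per the labels. The series' design text names a SMART protocol and the sample labels a strand-specific Ultra II Directional kit, and which was used was not settled here. Reads were aligned with GSNAP to mm10 and counted with featureCounts 1.6.2, per the submitters' processing notes. For the strand setting and multi-mapping reads, nothing is given in the sources used here. No exon of the 8 genes overlapped an exon of another gene in the table.

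The values deposited by the authors are raw read counts per gene without normalization, in 49763 features. The 92 spike-in features, with at most 1 read each in any library, were left out. Symbols were found for 49326 of 49671 genes in the GENCODE M21 names. Exon length in bases is the authors' deposited column. Genes were kept with filterByExpr (19099), scaled with TMM factors and tested with edgeR 4.0.16 (R 4.3.3), robust quasi-likelihood fit, genotype as the only term, Benjamini-Hochberg adjustment over all tested genes, called at an adjusted p under 0.05. SE was derived from the F statistic. CPM, scaled with the same factors, was computed from the counts. A count of 0.5 was added before log2 ratios to Adipoq. Permutation tests used scipy 1.17.1. Alternatives used DESeq2 1.42.0 and limma 3.58.1. The main edgeR fit was tested on simulated counts with known answers, and the permutation test and outlier rule on short made-up values. DESeq2 and limma were not tested in this way.

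Replicates were numbered in sample order and pair nothing. The labels do not say that each library is a separate mouse, so p-values measure only the spread between these samples, which may be technical. Every pair of replicates differed by more than counting noise (5.94 or more, chi-square over degrees of freedom). The members and gene lists were chosen with earlier results of these data known. Named genes are the members, Flg, the called genes of each pathway list or else up to 2 with the smallest p, and the 6 genes closest to Adipoq. Others were named after their values were seen. The result of 1 pathway list is not reported here.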

Additional observations from a re-analysis of the deposited data

Results flagged for a closer look

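Lep in WT replicate 3 stood apart from the other wild-type libraries, at 36.3 CPM against 8.27 to 12.02 CPM. It was the 1 value flagged among 30 groups of 4 libraries (CPM of 8 genes and 7 ratios to Adipoq, in each genotype), where chance flags about 1 in 20 groups. The sum of white adipocyte markers was also highest in that library, at 9299 CPM. The part of fat amount in the Lep value of this library was not tested. Per 100 Adipoq reads the library was not apart, at 16.4 against 8.84 to 14.7.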

How the results depend on the processing

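The number of called genes was 270 in the edgeR fit, 1177 with DESeq2, 2556 with limma voom and quality weights, 502 without a filter, 39 with the adipocyte covariate, and from 11 to 1325 when 1 library was left out. It was 780 without WT replicate 3 and KO replicate 3 together, a choice made after seeing the data. Adipoq passed with limma voom (log2 fold change 1.03) and without both of those libraries (1.30), Cfd with DESeq2 (1.196), limma voom (1.43), upper-quartile factors (1.18) and without both (1.63), Lep with DESeq2 (2.44), limma voom (3.0) and without both (3.40), and Retn with DESeq2 (1.61), limma voom (2.16) and without both (2.21). With 1 library left out the log2 fold change ran from 0.58 to 1.15 for Adipoq, 2.21 to 3.12 for Lep, 1.38 to 2.08 for Retn and 1.04 to 1.48 for Cfd, and passed only without WT replicate 3. It ran from -0.24 to 0.62 for Rbp4 and from -0.31 to 0.14 for Agt, neither with a stable sign. Agt was also above 0 with limma voom (0.10) and the adipocyte covariate (0.17), and Rbp4 was below 0 with that covariate (-0.75) and at 0.69 without both libraries. The cause was not tested.

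The ratios of Lep, Retn and Cfd to Adipoq kept their direction with 1 library left out (1.58 to 1.95, 0.75 to 1.16 and 0.35 to 0.48), where the smallest possible p is 0.0571. Without WT replicate 3 and KO replicate 3 they were 2.10, 0.96 and 0.33, with 0.1 as the smallest possible p. Against Plin1 they were 1.03, 0.24 and -0.29. The ratio of Rbp4 to Plin1 differed by -1.28 without overlap (exact permutation p = 0.0286, unadjusted and the smallest possible). All differences against Plin1 include that of Plin1 itself, whose mean log2 ratio to Adipoq was 0.70 higher in knockout. With Adipoq or the white adipocyte markers as the reference, the Rbp4 groups overlapped. No paired analysis was possible because the labels give no replicate numbers.

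Depth limits Apln most, with 67 to 167 reads per library.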

Other observations

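Of the 30 genes with more reads per Adipoq read in every knockout library, Retn was number 22 by difference. Apart from Lep, none of the genes above Retn is an adipokine of the list. Those named here were picked after their values were seen. The haptoglobin gene Hp, an acute phase protein that fat also makes, had a mean log2 ratio 1.89 higher in knockout, and went from a mean of 65.1 to 332 CPM. The fatty acid synthase gene Fasn was 1.03 higher, with means of 349 and 1137 CPM, and the oxytocin receptor gene Oxtr 1.09 higher, with means of 24.1 and 91.6 CPM. Aoc3, an amine oxidase of the adipocyte surface, was 0.44 higher, close to Cfd. Alb, the albumin gene, headed the 30 at 2.22, at a low mean of 7.95 CPM in knockout.

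Reads of Cfd made up 44.7% to 52.9% of the summed reads of the 8 genes in wild type and 56.0% to 59.5% in knockout. The share of Lep was 1.51% to 3.33% in wild type and 3.59% to 7.32% in knockout. These shares of reads are not corrected for gene length.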
